A study of Homo sapiens with 4 samples.

Results

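The 10 genes described here are inducible feedback genes and transcriptional targets of the RAS-ERK branch of MAPK signalling. They are the dual-specificity phosphatases DUSP4, DUSP5 and DUSP6, the Sprouty genes SPRY1, SPRY2 and SPRY4, the Sprouty-related genes SPRED1 and SPRED2, and the ETS factors ETV4 and ETV5. They were taken by gene symbol from an RNA-Seq expression table of 62077 rows, each on a row of its own on an assembled chromosome. The table holds 4 libraries of FADU cells, an established hypopharyngeal squamous carcinoma line, with 1 library per group. The cells of H-scr and H-si were kept for 19 h at 1% oxygen and 5% CO2, and those of N-scr and N-si in normoxia. H-scr and N-scr carried a scrambled control hairpin, and H-si and N-si carried a hairpin against TET1 (TET1-si), a dioxygenase that converts 5-methylcytosine to 5-hydroxymethylcytosine. All 4 groups were grown in DMEM with serum, which itself supplies growth factors, and hairpins were delivered by lentivirus. The study's methods list 1 hairpin sequence for TET1, so effects of that hairpin and of the loss of TET1 cannot be told apart.

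ERK, the last kinase of the RAF-MEK-ERK cascade, switches on a set of genes whose products then restrain the cascade. Dual-specificity phosphatases remove the phosphates that activate MAP kinases, Sprouty proteins act between receptor tyrosine kinases and RAF, and SPRED proteins bring the RAS inhibitor neurofibromin to the membrane. ETV4 and ETV5, members of the PEA3 group of ETS transcription factors, are induced by FGF and EGF receptor signalling in many epithelia. The transcripts of these genes are widely read as a measure of ERK output, although each one also responds to other inputs. The comparisons asked how each gene differed between normoxia and hypoxia, between scrambled and TET1-si cells, and whether the hypoxia difference was the same in both kinds of cell.

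Levels are FPKM, fragments scaled to transcript length and to the size of the library, as deposited by the authors. Since each group had 1 library, replicate error could not be measured, no test was possible, and every difference below is one between single libraries. Depths were recovered from low FPKM values among 18305 genes with 1 exon, on 827 to 966 values per library. These depths were lowest in H-si, with 22425000 reads, and highest in H-scr, with 24550000. Reads per gene computed from them are approximate, and the 95% counting intervals below rest on those reads and cover counting error only. TET1 had 0.129 (N-scr) and 0.0493 FPKM (N-si) in normoxia and 0.331 (H-scr) and 0.122 FPKM (H-si) in hypoxia, on approximately 28, 11, 76 and 26 reads, so it was lower in both TET1-si libraries. The hairpin target CCTTGATAGAATCACTCAGTT matched the last exon of TET1, exon 12 of 12, past the coding sequence (hg19, chromosome 10, 70451833 to 70451853, plus strand). Of 10 hypoxia markers, 9 reached a 2-fold higher level under hypoxia with the scrambled hairpin and 8 with the TET1 hairpin. The shares of 15057 genes with a mean of at least 1 FPKM were 12.9% and 12.5%. All 6 epithelial markers were above 1 FPKM in every library, and their summed level was 5905 and 7314 FPKM for N-scr and H-scr against 1824 and 2726 for N-si and H-si. The lower sums came from the keratins KRT5, KRT8 and KRT18. CDH1 was higher with the TET1 hairpin (179 to 267 FPKM in normoxia, 292 to 399 in hypoxia), as was EPCAM (155 to 206 and 102 to 163), and TP63 lay between 42.1 and 54.8 in the 4 libraries. Among 3 endothelial markers the sum ranged from 8.93 FPKM for N-scr to 48.4 for H-si and came mostly from CDH5. The sum of 5 fibroblast markers ranged from 5.30 FPKM for N-scr to 37.2 for H-si, with COL1A2 and LUM at 0 throughout. Nearly all of it came from COL1A1, with 5.29 FPKM for N-scr and 37.0 for H-si. The sum of 5 leukocyte markers ranged from 2.56 to 5.72 FPKM, with CD3E at 0 throughout. Whether these marker shifts had a part in the results was not tested.

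All 10 feedback genes were above 0 in every library, and 8 of them had a mean of at least 1 FPKM over the 4 libraries. DUSP5 had the highest mean, 28.9 FPKM, followed by SPRED2 with 15.1, SPRED1 with 12.5 and DUSP6 with 10.4. ETV4 and ETV5 had means of 8.37 and 6.91 FPKM, and SPRY2 and DUSP4 had 3.23 and 2.57. SPRY1 and SPRY4 had means of 0.654 and 0.624 FPKM. N-si held the highest level of 5 of the 10 genes and the lowest of none, while over 15057 genes with a mean of at least 1 FPKM it held the highest level of 25.8% and the lowest of 17.1%. H-si and N-scr each held the lowest level of 4 of the 10, beside 25.9% and 35.5% of all genes. In bulk RNA, a change in the number of cells that express a gene and a change in RNA per cell cannot be told apart.

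**Figure D1:**
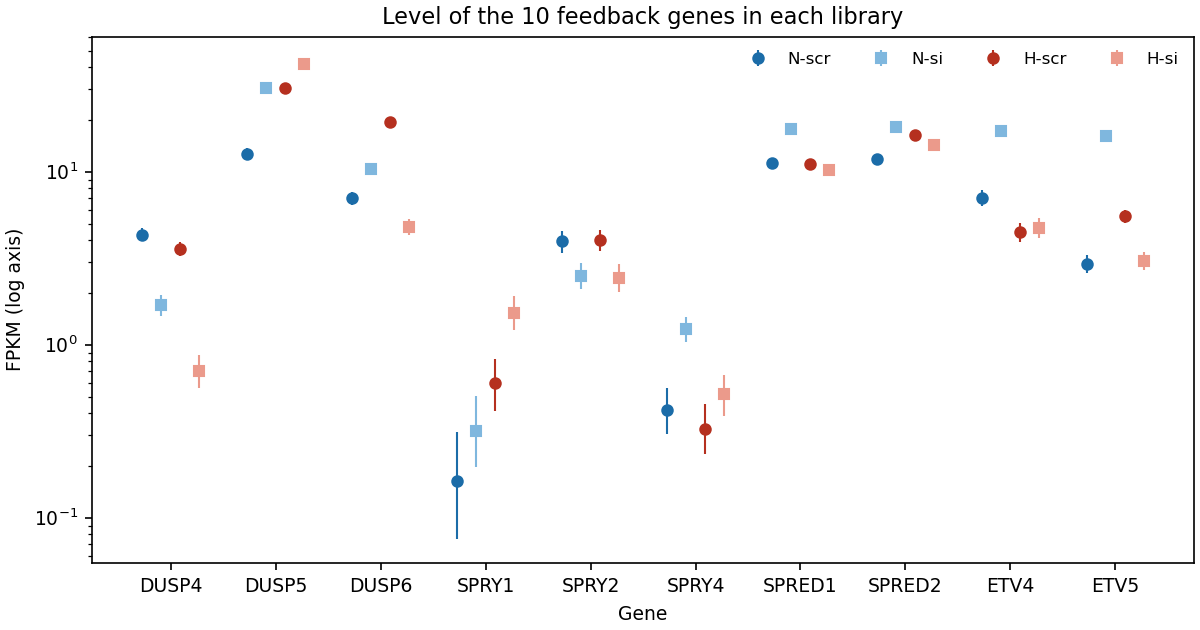
FPKM of the 10 feedback genes (log axis) in the 4 groups, 1 library each; bars are 95% counting intervals of the approximate reads. ETV4, ETV5, SPRY4, SPRED1 and SPRED2 were highest in N-si, DUSP6 was highest in H-scr (19.3 FPKM), and DUSP4 was lowest in H-si (0.70 FPKM).

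DUSP4, a nuclear phosphatase that acts on ERK, JNK and p38, lies on chromosome 8 (ENSG00000120875, hg19, 29190581 to 29208185, minus strand). Its level was 4.33 (N-scr) and 3.58 FPKM (H-scr) with the scrambled hairpin and 1.69 (N-si) and 0.70 FPKM (H-si) with the TET1 hairpin, on approximately 528, 469, 220 and 84 reads. Both scrambled libraries were above both TET1-si libraries, and no counting interval of a neighbouring pair in this order included 0. TET1-si cells had 2.56-fold less than scrambled cells in normoxia (log2 ratio interval -1.59 to -1.13) and 5.11-fold less in hypoxia (-2.70 to -2.01). Under hypoxia it was 1.21-fold lower in scrambled cells and 2.41-fold lower in TET1-si cells.

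DUSP5 is a nuclear phosphatase with a strong preference for ERK (ENSG00000138166, chromosome 10, 112257596 to 112271302, plus strand). Its level was 12.7 (N-scr) and 30.5 FPKM (N-si) in normoxia and 30.4 (H-scr) and 42.0 FPKM (H-si) in hypoxia. N-scr stood below the other 3 libraries, and N-si and H-scr did not differ beyond counting error. Under hypoxia it was 2.39-fold higher in scrambled cells (log2 ratio interval 1.13 to 1.39) and 1.38-fold higher in TET1-si cells (0.37 to 0.55). DUSP5 was higher in TET1-si cells in both oxygen states, the opposite of DUSP4.

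DUSP6, the cytoplasmic phosphatase most specific for ERK, was the 1 of these 3 phosphatases whose hypoxia difference had opposite signs in the 2 kinds of cell (ENSG00000139318, chromosome 12, 89741050 to 89747048, minus strand). Its level was 7.0 (N-scr) and 19.3 FPKM (H-scr) with the scrambled hairpin and 10.3 (N-si) and 4.80 FPKM (H-si) with the TET1 hairpin, on approximately 547, 1622, 860 and 367 reads. H-scr was the highest library and H-si the lowest, 4.03-fold apart. With the scrambled hairpin DUSP6 was 2.76-fold higher under hypoxia (log2 ratio interval 1.32 to 1.61), and in TET1-si cells it was 2.15-fold lower (-1.29 to -0.93). The TET1-si library was 1.47-fold above the scrambled one in normoxia and 4.03-fold below it in hypoxia. A lncRNA is annotated over its exons on the other strand, ENSG00000274021, and strand was not stated for these reads.

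The bases before the DUSP6 start are printed because the gene was higher under hypoxia with one hairpin and lower with the other. The sequence is from RefSeq on GRCh38.p14, 250 bases ending at the base before the start, 5′ to 3′, with motif matches in capitals. Of the 10 genes, 6 had a RefSeq promoter entry here (DUSP6, SPRY1, SPRY2, SPRY4, SPRED1 and SPRED2), with 10 starts in all.
DUSP6, chr12:89352502-89352751, minus strand: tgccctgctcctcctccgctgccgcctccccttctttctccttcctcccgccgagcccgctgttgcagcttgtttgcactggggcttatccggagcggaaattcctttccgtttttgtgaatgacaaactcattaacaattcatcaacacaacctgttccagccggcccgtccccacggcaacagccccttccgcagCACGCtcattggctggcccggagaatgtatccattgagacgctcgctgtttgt

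Motifs were searched on both strands, as ACGTG and GCGTG (cores of the hypoxia response element), CCGGAA (an ETS core), TGACGTCA (the cyclic AMP response element) and TGANTCA (AP-1). DUSP6 held 1 match, a GCGTG core in reverse complement that begins 53 bases before the start. Among 35116 promoters of this length, 32.2% held GCGTG, 18.5% ACGTG, 14.5% CCGGAA, 6.57% TGANTCA and 1.65% TGACGTCA. Over the 10 starts of the 6 genes, GCGTG was present in 3 (DUSP6, SPRY1 and SPRED2), CCGGAA in 2 (SPRY1 and SPRY2), and the other motifs in 0. These windows hold 3 to 30 CpG dinucleotides, against a median of 11 over all promoters.

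SPRY1 was the Sprouty gene that was higher in hypoxia in both kinds of cell (ENSG00000164056, chromosome 4, 124317950 to 124324910, plus strand). Its level was 0.164 (N-scr) and 0.317 FPKM (N-si) in normoxia and 0.602 (H-scr) and 1.53 FPKM (H-si) in hypoxia, on approximately 9, 19, 35 and 82 reads. Both hypoxia libraries were above both normoxia libraries, and the normoxia pair did not differ beyond counting error. The level in hypoxia was 3.68 times that in normoxia in scrambled cells (log2 ratio interval 0.77 to 3.10) and 4.83 times in TET1-si cells (1.5 to 3.04). In hypoxia it was 2.54-fold higher in TET1-si than in scrambled cells (0.77 to 1.97).

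SPRY2, a widely expressed inhibitor of receptor tyrosine kinase signalling, differed by knockdown state and not detectably by oxygen (ENSG00000136158, chromosome 13, 80910111 to 80915086, minus strand). Its level was 3.95 FPKM for N-scr and 4.03 for H-scr, and 2.51 for N-si and 2.42 for H-si. Within each kind of cell the log2 ratio interval of hypoxia to normoxia included 0 (-0.26 to 0.32 with the scrambled hairpin, -0.42 to 0.33 with the TET1 hairpin). TET1-si cells had 1.58-fold less in normoxia and 1.66-fold less in hypoxia.

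SPRY4, which inhibits growth factor signalling upstream of RAS, was highest in N-si (ENSG00000187678, chromosome 5, 141689992 to 141706020, minus strand). Its level was 0.417 (N-scr) and 1.23 FPKM (N-si) in normoxia and 0.327 (H-scr) and 0.518 FPKM (H-si) in hypoxia, on approximately 45, 141, 38 and 54 reads. The other 3 libraries lay close together, and neither neighbouring pair among them differed beyond counting error, although the outer pair, H-si and H-scr, were 1.58-fold apart (log2 ratio interval 0.01 to 1.28). In normoxia SPRY4 was 2.96-fold higher in TET1-si cells (log2 ratio interval 1.06 to 2.07). In TET1-si cells it was 2.38-fold lower in hypoxia (-1.74 to -0.80), while in scrambled cells the interval was -1.01 to 0.31.

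The sequences before the Sprouty starts are shown for SPRY1 and SPRY4, the pair with opposite hypoxia differences in TET1-si cells, on GRCh38.p14 from RefSeq with matches in capitals. SPRY1 has 2 annotated starts, the upstream one with a GCGTG match and the downstream one with a CCGGAA match, and SPRY4 has none of the motifs.
SPRY1 upstream start, chr4:123396545-123396794, plus strand: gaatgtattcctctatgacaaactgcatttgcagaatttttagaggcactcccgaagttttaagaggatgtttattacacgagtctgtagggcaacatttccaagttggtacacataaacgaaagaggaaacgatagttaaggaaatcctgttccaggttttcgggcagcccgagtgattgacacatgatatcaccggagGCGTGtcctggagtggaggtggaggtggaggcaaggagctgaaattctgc
SPRY1 downstream start, chr4:123398136-123398385, plus strand: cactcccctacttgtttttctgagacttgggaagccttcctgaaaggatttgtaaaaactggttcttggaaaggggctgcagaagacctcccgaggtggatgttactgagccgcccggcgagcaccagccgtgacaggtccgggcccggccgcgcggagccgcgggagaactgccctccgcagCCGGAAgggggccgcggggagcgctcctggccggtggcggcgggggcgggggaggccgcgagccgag
SPRY4, chr5:142324248-142324497, minus strand: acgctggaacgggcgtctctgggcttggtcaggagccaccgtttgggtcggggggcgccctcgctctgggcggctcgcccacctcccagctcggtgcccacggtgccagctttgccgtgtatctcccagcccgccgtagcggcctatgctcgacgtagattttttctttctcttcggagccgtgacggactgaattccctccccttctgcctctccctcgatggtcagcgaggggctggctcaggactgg

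SPRED1 and SPRED2, membrane adaptors that recruit neurofibromin to RAS, moved over a narrower range than the other genes except SPRY2. SPRED1 (ENSG00000166068, chromosome 15, 38544527 to 38649450, plus strand) had 11.2 (N-scr) and 17.6 FPKM (N-si) in normoxia and 11.0 (H-scr) and 10.3 FPKM (H-si) in hypoxia. N-si alone stood out, 1.57-fold above N-scr and 1.71-fold above H-si, and the scrambled pair did not differ beyond counting error. SPRED2 (ENSG00000198369, chromosome 2, 65537985 to 65659771, minus strand) had 11.9 (N-scr) and 18.0 FPKM (N-si) in normoxia and 16.2 (H-scr) and 14.3 FPKM (H-si) in hypoxia. Under hypoxia it was 1.36-fold higher with the scrambled hairpin (log2 ratio interval 0.34 to 0.56) and 1.26-fold lower with the TET1 hairpin (-0.44 to -0.23). SPRED1 rested on approximately 1626 to 3026 reads and SPRED2 on 1171 to 1896, and their highest and lowest libraries were at most 1.71-fold apart.

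ETV5 had the widest contrast between N-si and the other libraries (ENSG00000244405, chromosome 3, 185764097 to 185828107, minus strand). Its level was 2.93 (N-scr) and 16.1 FPKM (N-si) in normoxia and 5.51 (H-scr) and 3.06 FPKM (H-si) in hypoxia, on approximately 259, 1524, 524 and 265 reads. H-si and N-scr did not differ beyond counting error. In normoxia ETV5 was 5.51-fold higher in TET1-si cells (log2 ratio interval 2.27 to 2.66), and in hypoxia it was 1.80-fold lower (-1.07 to -0.64). Under hypoxia it was 1.88-fold higher in scrambled cells and 5.27-fold lower in TET1-si cells. Its exons overlap those of DGKG on the same strand, which had at most 0.0151 FPKM.

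ETV4 shared the high level in N-si (ENSG00000175832, chromosome 17, 41605212 to 41656988, minus strand). Its level was 7.03 (N-scr) and 17.3 FPKM (N-si) in normoxia and 4.46 (H-scr) and 4.73 FPKM (H-si) in hypoxia, and the hypoxia libraries did not differ beyond counting error. It was 2.46-fold higher in TET1-si cells in normoxia (log2 ratio interval 1.12 to 1.48). In hypoxia it was 1.58-fold lower in scrambled cells and 3.66-fold lower in TET1-si cells. Exons of ETV4 overlap those of DHX8 on the other strand, which had 23.3 to 28.4 FPKM in the 4 libraries. Reads could be split between ETV4 and DHX8 in a way that the table does not show.

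Across the 10 genes, hypoxia was compared with normoxia within each kind of cell, counting a change of at least 1 on the log2(FPKM + 0.1) scale (2-fold; the pseudocount of 0.1 understates changes at low levels). In scrambled cells 3 of the 10 were at least 2-fold higher (DUSP5, DUSP6 and SPRY1), against 12.9% of the 15057 genes, and 0 were at least 2-fold lower, against 4.53%. In TET1-si cells 5 of the 10 were at least 2-fold lower (DUSP4, DUSP6, SPRY4, ETV4 and ETV5), against 8.66%, and 1 was higher (SPRY1), against 12.5%. The 15057 genes all have a mean of at least 1 FPKM, which SPRY1 and SPRY4 do not. Of the 8 feedback genes that do, 2 were at least 2-fold higher in scrambled cells. In TET1-si cells 4 of the 8 were at least 2-fold lower and 0 higher. The median change of the 10 genes was 0.23 with the scrambled and -0.93 with the TET1 hairpin, beside 0.05 and 0.03 over all 15057 genes. These comparisons share no library. With a pseudocount of 1, only 2 of the 10 remained at least 2-fold lower in TET1-si cells, ETV4 and ETV5. The median of the 10 was then -0.61, beside 0.02 over all genes. The all-gene share of 2-fold changes was not computed with this pseudocount, so that count has no share beside it.

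**Figure D2:**
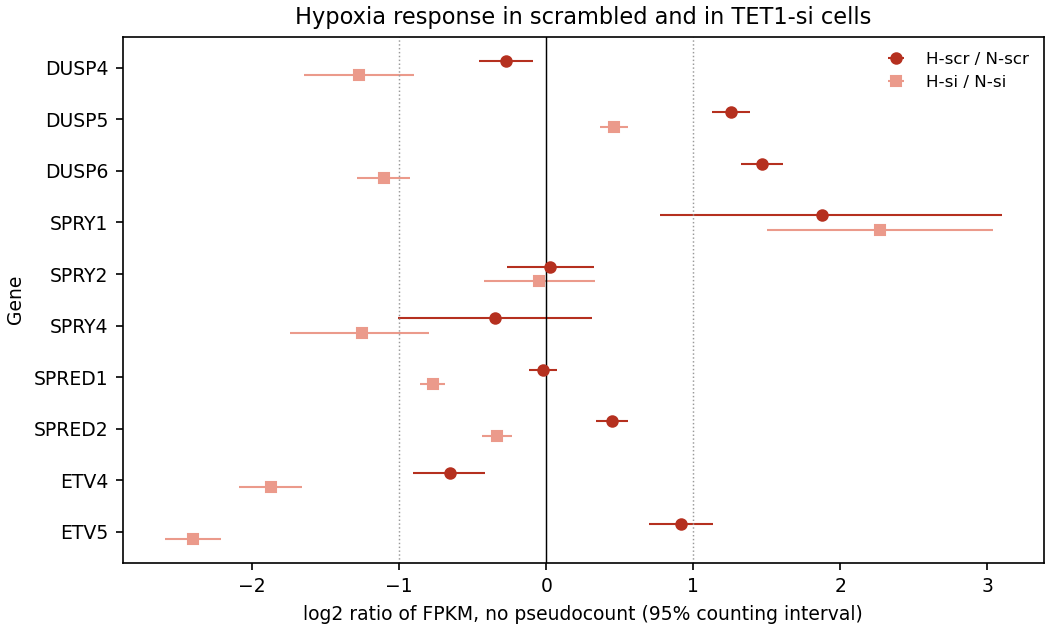
The log2 ratio of hypoxia to normoxia FPKM for each gene in scrambled cells (circles) and TET1-si cells (squares), without a pseudocount, with 95% counting intervals; dotted lines mark 2-fold. DUSP6, SPRED2 and ETV5 lie right of 0 in scrambled cells and left of 0 in TET1-si cells, while SPRY1 and DUSP5 lie right of 0 in both.

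The TET1-si libraries were then compared with the scrambled ones within each oxygen state. In normoxia 4 of the 10 genes were at least 2-fold higher (DUSP5, SPRY4, ETV4 and ETV5), against 12.1% of all genes, and 1 was at least 2-fold lower (DUSP4), against 5.56%. In hypoxia 2 were at least 2-fold lower (DUSP4 and DUSP6), against 8.35%, and 1 was higher (SPRY1), against 12.0%. Of the 8 genes with a mean of at least 1 FPKM, 3 were higher and 1 lower in normoxia. In hypoxia 0 of these 8 were higher and 2 lower. The median change was 0.65 in normoxia and -0.14 in hypoxia, beside 0.15 and 0.10 over all genes. DUSP4 and SPRY2 were lower in TET1-si cells in both oxygen states, and DUSP5, SPRY1, SPRY4 and ETV4 were higher in both as deposited. For ETV4 in hypoxia the change of 0.08 became -0.06 with median-of-ratios scaling, and for SPRY1 in normoxia the counting interval included 0. The comparison in normoxia shares N-si with the hypoxia comparison in TET1-si cells, so the high N-si levels of SPRY4, ETV4 and ETV5 enter both.

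**Figure D3:**
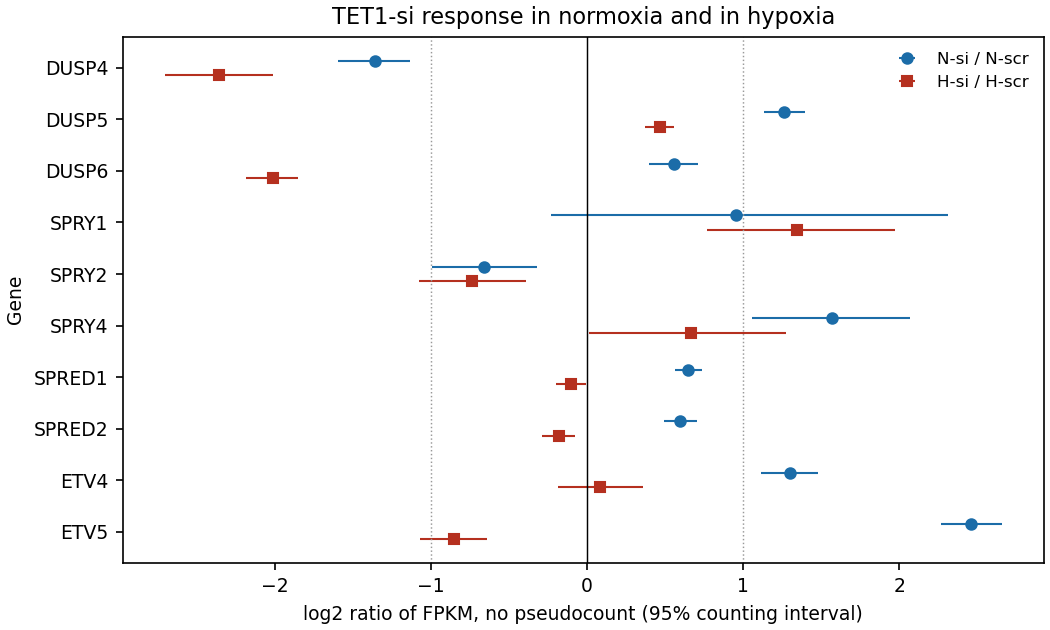
The log2 ratio of TET1-si to scrambled FPKM for each gene in normoxia (circles) and hypoxia (squares), without a pseudocount, with 95% counting intervals; dotted lines mark 2-fold. DUSP4 and SPRY2 lie left of 0 in both, and DUSP6, SPRED1, SPRED2 and ETV5 lie right of 0 in normoxia and left of 0 in hypoxia.

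The difference of hypoxia responses, the TET1-si value minus the scrambled value, was below 0 for 9 of the 10 genes, against 55.4% of all genes. It was -1 or lower for 3 of the 10 (ETV5 with -3.25, DUSP6 with -2.54 and ETV4 with -1.20), against 7.86% of all genes, and 1 or higher for 0, against 4.87%. A further 5 genes, DUSP4, SPRY4, DUSP5, SPRED2 and SPRED1, lay between -0.89 and -0.74. SPRY2 had -0.07 and SPRY1 had 0.56. Without a pseudocount their log2 ratios were -0.08 and 0.39, with counting intervals from -0.54 to 0.39 and from -0.88 to 1.67. No difference was thus detectable for either at this depth. The median of the 10 was -0.81, beside -0.06 over all genes, and it stayed between -0.84 and -0.71 under the other pseudocounts and scalings. Every difference uses the 1 N-si library, which was the highest for ETV4, ETV5, SPRY4, SPRED1 and SPRED2. For ETV4 N-si had 17.3 FPKM, while H-scr and H-si had 4.46 and 4.73. For SPRED1 N-si had 17.6 FPKM and the other libraries 10.3 to 11.2. With H-si set against H-scr alone, 6 of the 10 genes were lower, against 42.9% of all genes. The hypoxia change had opposite signs in the 2 kinds of cell for 4 of the 10 genes (DUSP6, SPRY2, SPRED2 and ETV5), against 22.1% of all genes and 21.1% of 11907 protein-coding genes. For SPRY2 both changes were within counting error.

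Genes around the same pathway were followed in lists of related function, counting members with a mean of at least 1 FPKM. Of 13 other ERK-induced genes, 12 had a difference of hypoxia responses below 0, against 55.4% of all genes, with a median of -0.57. The difference was -1 or lower for 4 of the 13, against 7.86%. FOSL1, an AP-1 subunit, had 88.7 (N-scr) and 106 FPKM (N-si) in normoxia and 44 (H-scr) and 18.1 FPKM (H-si) in hypoxia. IER3, an early response gene, had 29.3 (N-scr) and 16.9 FPKM (N-si) in normoxia and 33.9 (H-scr) and 8.81 FPKM (H-si) in hypoxia. KLF6, a zinc finger factor, had 9.24 (N-scr) and 7.49 FPKM (N-si) in normoxia and 22.1 (H-scr) and 5.81 FPKM (H-si) in hypoxia. All 3 were lowest in H-si, as were DUSP4, DUSP6 and SPRED1. SPRY2 was lowest there too, but its H-si and N-si levels did not differ beyond counting error. In hypoxia 6 of these 13 genes were at least 2-fold lower in TET1-si cells, against 8.35% of all genes. None of them, 0 of 13, were at least 2-fold higher, against 12.0%. Counting changes of any size, 9 were lower, against 42.9% of all genes, and 4 were higher, against 56.5%. The counts in normoxia were 1 at least 2-fold lower, against 5.56%, and 0 at least 2-fold higher, against 12.1%.

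The 21 core cascade genes include the RAS, RAF, MEK and ERK genes, adaptors, exchange factors and the RAS inhibitors NF1 and RASA1. Of them 0 had a difference of hypoxia responses of 1 or higher, against 4.87% of all genes, and 0 of -1 or lower, against 7.86%. Their differences ranged from -0.76 to 0.64 with a median of -0.05. The largest change in this list belonged to the scaffold KSR1, which had 6.41 (N-scr) and 20.6 FPKM (N-si) in normoxia and 17.3 (H-scr) and 45.3 FPKM (H-si) in hypoxia. The exchange factors SOS1 and SOS2 followed, with 8.53 to 21.7 and 4.4 to 17.8 FPKM, both highest in H-si. Among 10 other dual-specificity phosphatases the median difference was -0.16, with 1 at -1 or lower, against 7.86% of all genes. DUSP8, which acts mainly on JNK and p38, had 0.306 (N-scr) and 2.01 FPKM (N-si) in normoxia and 0.842 (H-scr) and 1.22 FPKM (H-si) in hypoxia. Like DUSP6, it was higher under hypoxia with the scrambled hairpin (log2 ratio interval 0.87 to 2.09) and lower with the TET1 hairpin (-1.05 to -0.41). DUSP10, which also acts on JNK and p38, had 2.71 (N-scr) and 8.35 FPKM (N-si) in normoxia and 3.80 (H-scr) and 15.9 FPKM (H-si) in hypoxia. DUSP16, a JNK phosphatase, had 1.52 (N-scr) and 8.26 FPKM (N-si) in normoxia and 4.69 (H-scr) and 13.1 FPKM (H-si) in hypoxia. DUSP8, DUSP10 and DUSP16, like DUSP5, were higher in TET1-si cells in both oxygen states. Of the 10 other dual-specificity phosphatases, 7 were higher in normoxia, against 60.3% of all genes, and 6 in hypoxia, against 56.5%.

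Of 14 upstream receptors and ligands, 11 had a difference below 0, against 55.4% of all genes, with a median of -0.44. The difference was -1 or lower for 3 of the 14, against 7.86%. FGFBP1, a carrier that releases FGF from the matrix, had 63.5 FPKM for N-scr and 258 for H-scr, and 5.26 for N-si and 9.69 for H-si. FGFR2 had 14.7 (N-scr) and 27.7 FPKM (N-si) in normoxia and 15.7 (H-scr) and 52.5 FPKM (H-si) in hypoxia. FGFR3 had 8.83 (N-scr) and 17.0 FPKM (N-si) in normoxia and 44.5 (H-scr) and 84.5 FPKM (H-si) in hypoxia. FGFR2 and FGFR3 were highest in H-si, but FGFR4 had 6.65 FPKM in H-si against 14.7 in H-scr. FGFR1 had 4.28 to 4.71 FPKM, and no neighbouring pair of libraries in its order differed beyond counting error. The difference was below 0 for 10 of 10 hypoxia markers as well, against 55.4% of all genes, with a median of -0.65. The prolyl hydroxylase gene EGLN3 had a difference of -1.21. Its level was 2.62 (N-scr) and 5.68 FPKM (N-si) in normoxia and 62.9 (H-scr) and 57.9 FPKM (H-si) in hypoxia. NDRG1 had a difference of -0.59, with 15.9 (N-scr) and 28.0 FPKM (N-si) in normoxia and 497 (H-scr) and 579 FPKM (H-si) in hypoxia. In hypoxia NDRG1 was thus higher in TET1-si cells. CA9, a carbonic anhydrase, had 0.18 FPKM for N-scr, was listed at 0 for N-si, and had 7.82 for H-scr and 0.506 for H-si.

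**Figure D4:**
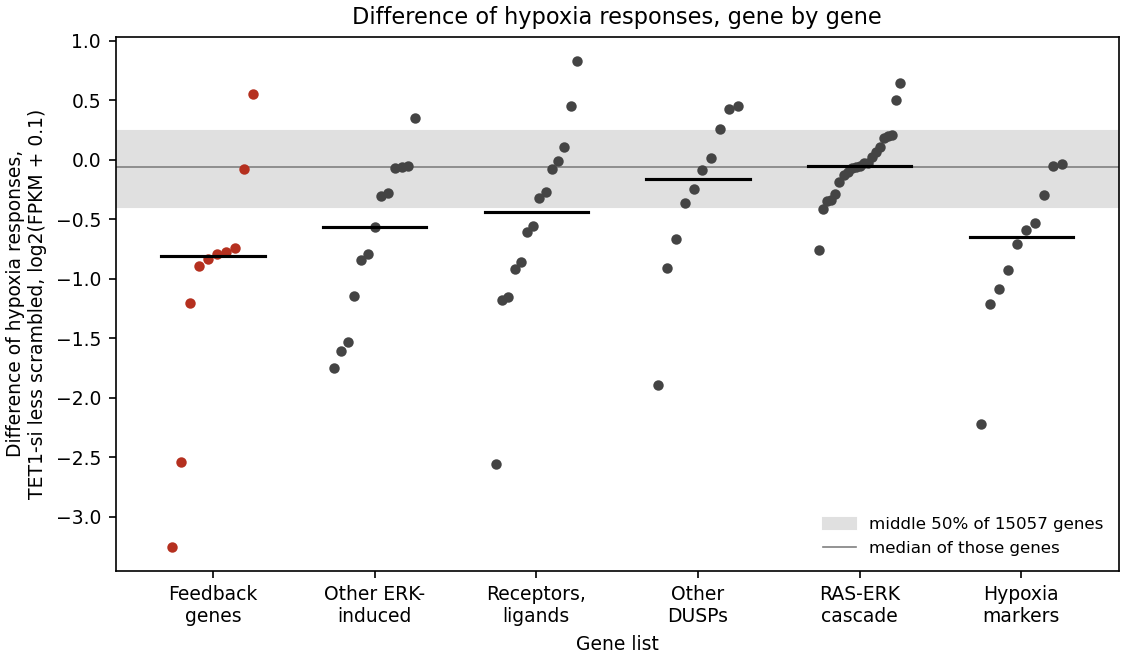
The difference of hypoxia responses (TET1-si less scrambled, log2(FPKM + 0.1)) of each gene in 6 lists; horizontal bars are list medians, the grey band is the middle 50% of 15057 genes and the grey line their median. Of the 10 feedback genes, 8 lie below the band, while the core cascade genes lie around the line.

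For the TET1-si response each gene was set beside its 20 nearest expressed protein-coding neighbours, 10 on each side. In normoxia ETV5 had a change of 2.42 and its neighbours a median of 0.25, with 1 of 20 neighbours higher. DUSP6 had -1.99 in hypoxia, beside a neighbour median of -0.49 with 2 of 20 lower, and 0.55 in normoxia, beside -0.42 with 1 of 20 higher. For DUSP4 the changes of -2.20 and -1.31 stood beside medians of 0.10 and 0.12, and 0 of 20 neighbours were lower in either oxygen state. DUSP5, SPRY1, SPRY4 and ETV4 were above 18 or 19 of 20 neighbours in normoxia. In hypoxia SPRY1 was above 19 of 20, DUSP5 and SPRY4 above 15, and ETV4 above 11. With 5 genes on each side, the ETV4 neighbour medians were 0.50 in normoxia and 0.74 in hypoxia. ETV4 itself had changes of 1.29 and 0.08. SPRED1 was not set apart in normoxia, with a change of 0.64 beside a median of 0.57 and 9 of 20 neighbours higher. For the difference of hypoxia responses, 0 of 20 neighbours were lower than DUSP6, SPRY4, SPRED2, ETV4 and ETV5.

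**Figure D5:**
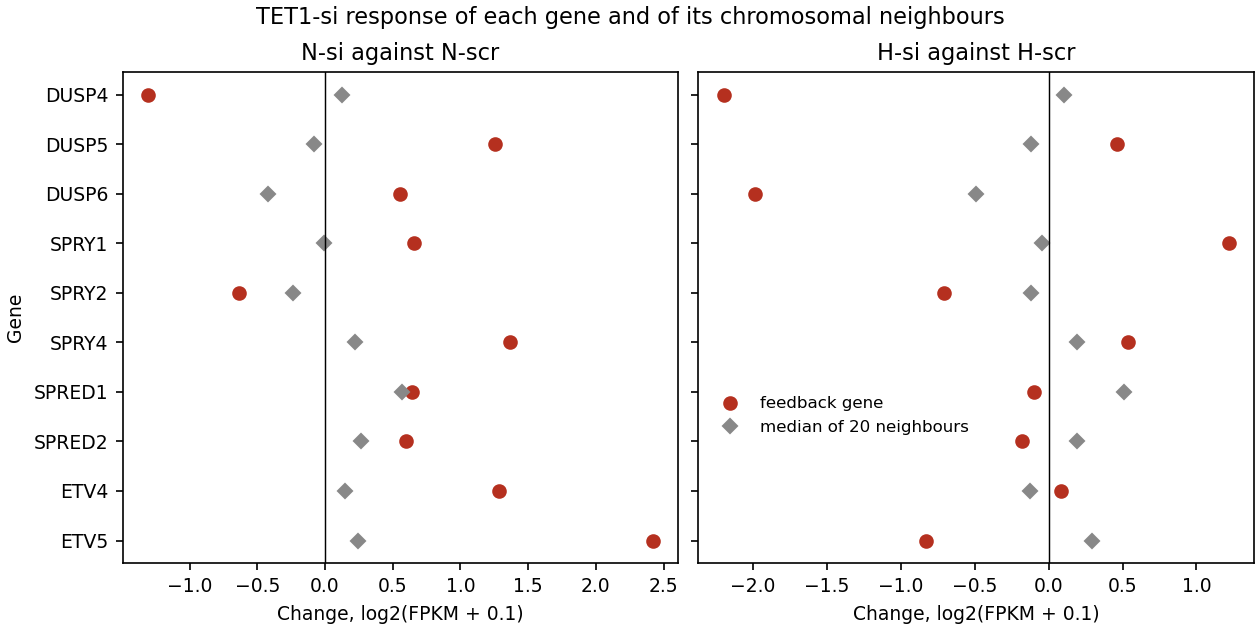
The TET1-si response (log2(FPKM + 0.1)) of each feedback gene (circles) and the median of its 20 nearest expressed protein-coding genes (diamonds), in normoxia (left) and hypoxia (right). The neighbour medians lie between -0.49 and 0.57, and the SPRED1 circle lies close to its neighbours' median in normoxia.

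Among 9464 protein-coding genes with a mean of at least 5 FPKM, profiles over the 4 libraries were compared with that of DUSP6 by the distance between centred log2(FPKM + 0.1) values. The 4 nearest were LIF at a distance of 0.40, RELB at 0.43, ACLY at 0.45 and NUDT8 at 0.48. All 4 were highest in H-scr and lowest in H-si, although NUDT8 had nearly the same level in H-si (6.51 FPKM) and N-scr (6.73 FPKM). LIF, an interleukin 6 family cytokine, had 8.70 (N-scr) and 9.44 FPKM (N-si) in normoxia and 18.5 (H-scr) and 5.87 FPKM (H-si) in hypoxia. Of the feedback genes in this comparison, SPRED2 was the nearest to DUSP6 and ranked 830, and ETV5 ranked 6482. DUSP4, SPRY1, SPRY2 and SPRY4 had means below 5 FPKM and were not compared. Ranking by Pearson correlation over the 4 libraries, which ignores the size of the change, placed these 4 genes at ranks 22 (LIF), 38 (RELB), 37 (ACLY) and 53 (NUDT8).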

How the data were processed

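RNA-Seq of FADU cells was analysed from the FPKM values deposited by the authors. TruSeq mRNA libraries were read at 100 bp on a HiSeq instrument (single end per the labels, paired end per the study's methods) and the authors ran TopHat and Cufflinks with Ensembl annotation on hg19. Versions and strand are not given in the sources used here. Values went unscaled into log2(FPKM + 0.1). Start positions, counted from 0, had 1 added. Of the gene IDs, 111 stand on 232 rows and were left out. Depth was the value that made the low FPKM of single-exon genes whole reads (97.1% to 97.7% within 0.05, median length offset 212 bp over the libraries). Reads per gene used canonical GENCODE v44lift37 lengths. Intervals of ratios are exact binomial (Clopper-Pearson), those of levels exact Poisson, and those of differences of responses a normal approximation. FPKM keep no replicate error, and no count test was run. The genes and lists were chosen with earlier results of these data known. Named genes were the 10 members, TET1, the 5 nearest to DUSP6 (of which 1 is not reported here), and 3 per related list with the largest change. Pseudocounts, scalings, folds, filters and neighbour numbers were varied. Code was tested on simulated data. Python 3.11.15, pandas 2.3.3 and SciPy 1.17.1 were used.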

Additional observations from a re-analysis of the deposited data

Results flagged for a closer look

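The hypoxia response went in opposite directions in scrambled and in TET1-si cells, with both counting intervals clear of 0, for 3 of the 10 genes, beside 7.75% of 14058 genes with reads, whose depth differs from gene to gene. Without regard to the intervals, signs were opposite for 4 of the 10 and for 22.1% of all genes. The TET1-si value minus the scrambled value was -3.25 for ETV5, -2.54 for DUSP6 and -0.78 for SPRED2, on the log2(FPKM + 0.1) scale. With 1 library per group these differences were not tested against the variation between cultures. No group had enough libraries to search for a deviating sample.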

How the results depend on the processing

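With 1 library per group no replicate could be left out. No paired analysis was possible because the labels give no replicate numbers and each group has 1 library. With a pseudocount of 1, SPRY1 no longer counted as higher in hypoxia in scrambled cells, where 2 genes were left, nor SPRY4 as higher after TET1-si in normoxia, where 3 were left. In TET1-si cells under hypoxia this pseudocount left 2 genes at least 2-fold lower and 0 higher, with a median of -0.61. When TET1-si was set against scrambled, it left 0 genes higher under hypoxia and 0 lower under normoxia. All-gene shares were not computed with this pseudocount, so these counts have no shares beside them. With a fold of 1.5 in place of 2, 1 gene was lower in hypoxia in scrambled cells (13.7% of all genes), and 4 were lower after TET1-si under hypoxia (16.8%). Under normoxia 7 were then higher (24.7%) and 2 lower (12.0%), and 8 had a lower hypoxia response in TET1-si cells (16.7%). No median of the 10 genes changed sign under the pseudocounts and scalings tried. Of 50 changes of single genes, 48 kept their sign under each of median-of-ratios, upper-quartile and TPM scaling, and all 50 under either pseudocount. The exceptions were SPRY2, SPRED1 and ETV4, each at a change under 0.1 in size as deposited. Upper-quartile scaling and TPM brought DUSP6 in TET1-si cells to -0.98 and -0.96, just under 2-fold, and TPM brought ETV5 in scrambled cells to 1.01. Median-of-ratios scaling moved the median TET1-si change of all genes from 0.15 to -0.0042 in normoxia, and in hypoxia from 0.10 to -0.03. That of the hypoxia change, 0.05 and 0.03 as deposited, became -0.06 and -0.05 with it and 0.16 with TPM. The all-gene median of the difference, -0.06, became 0.0034 with upper-quartile scaling. Without a filter, or at a mean of at least 5 FPKM, the share of genes changed 2-fold moved by over 1.5 times in 7 and 3 of 10 counts. The low levels of SPRY1 and SPRY4 limit what their ratios can show.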

Other observations

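FGFR4 and TGFA were chosen after their values were seen. FGFR4, an FGF receptor gene, had 4.55 (N-scr) and 12.3 FPKM (N-si) in normoxia and 14.7 (H-scr) and 6.65 FPKM (H-si) in hypoxia, and its difference of hypoxia responses was -2.56, the lowest among the 14 receptors and ligands. It was higher in hypoxia in scrambled cells and lower in TET1-si cells, as DUSP6 and ETV5 were. TGFA, an EGF receptor ligand, had 7.19 (N-scr) and 19.0 FPKM (N-si) in normoxia and 6.53 (H-scr) and 7.58 FPKM (H-si) in hypoxia, so N-si stood above the other libraries, as it did for SPRY4, ETV4 and ETV5.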
